A study of Mus musculus with 9 samples.

Results

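The liver burns fatty acids in mitochondria and in peroxisomes, and the mRNAs of both routes were measured in mice under calorie restriction (CR) and in mice lacking the triglyceride synthesis enzyme DGAT1. The genes described here are 44 genes of mitochondrial and peroxisomal fatty acid oxidation, chosen by name and represented by array probe sets that carry that gene symbol alone. Of these, 42 were measured, among 19935 genes with such a probe set. They comprise 21 mitochondrial genes, 14 peroxisomal genes, 4 whose products lie in both compartments (Acad11, Crat, Eci2 and Amacr) and 3 others (Acsl4, Acsl5 and the cytosolic Acot12). Acsl1 and Acsl3, which encode long-chain acyl-CoA synthetases, had no probe set of their own and are not analysed here. Where a gene had several probe sets, the one with the highest mean signal was used. Among the genes described this applied to Hadhb alone, whose 2 probe sets gave log2 differences of 0.24 and 0.23 between WTCR and WTAL livers.

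Liver RNA came from 9 female mice with a C57BL/6J background, aged 15 to 16 months and kept on standard chow, with 3 mice and 3 Affymetrix Mouse Gene 1.0 ST arrays in each group. WTCR mice were wild type and had their food intake cut in successive steps over several weeks, Dgat1-/-AL mice lacked Dgat1 in the whole body and ate ad libitum, and WTAL mice were wild type and ate ad libitum. All were housed singly, and the hour of death and the time since the last meal are not given for these livers in the sources used here. Values are log2 signals after RMA, so that a difference of 1 is a doubling, and signals of different genes cannot be set against each other as mRNA levels.

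Beta-oxidation shortens an acyl-CoA by repeated rounds of dehydrogenation, hydration, a further dehydrogenation and thiolysis. Mitochondria take up long chains through the carnitine shuttle and pass the electrons on to the respiratory chain. Peroxisomes begin with an oxidase that yields hydrogen peroxide, handle very long and branched chains and the side chain of bile acid precursors, and hand shortened chains to the mitochondria, in part as carnitine esters. In the liver the genes of both routes are well known targets of PPARalpha, a nuclear receptor that fatty acids activate in fasting.

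The labels were checked before the comparisons. The Dgat1 signal was 8.90, 8.76 and 8.56 in the WTCR arrays, 6.14, 5.84 and 5.39 in those of Dgat1-/-AL and 7.86, 5.67 and 8.04 in those of WTAL. In this gene the array labelled WTAL replicate 2 thus lay among the Dgat1-/-AL arrays and went against its label. Counts of calls and the values it moved over the threshold are therefore also given without it. In the endothelial marker Clec4g it had 11.63, with the other WTAL arrays (11.43 and 11.56) and above those of Dgat1-/-AL (10.97, 11.11 and 10.84). Acox2, described below, likewise set it with WTAL. Both genes were picked because they separated the groups with this array included. Whether its label is right was not tested. On the second principal component Dgat1-/-AL replicate 1 stood apart at -42.1, against -15.9 to 15.3 for the other arrays. The mean log2 signal of 7 hepatocyte markers was 13.2 to 13.3 in WTCR, 13.1 to 13.3 in Dgat1-/-AL and 13.1 to 13.2 in WTAL arrays. However, Hnf4a, a transcription factor of hepatocytes, was called higher in WTCR than in WTAL (0.40 ± 0.12) and than in Dgat1-/-AL (0.39 ± 0.12). The amino acid enzyme gene Tat was called higher in WTCR than in Dgat1-/-AL (0.44 ± 0.16). These calls of Hnf4a and Tat were lost when the arrays were quantile-normalized again. The mean signal of 4 adipocyte markers stayed between 4.59 and 4.71 in all 9. In whole liver, fewer cells of a type and less RNA per cell cannot be told apart.

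Of the genes described below, 4 carry the main contrasts. For these the 250 bases before the annotated start of the gene are shown, 5′ to 3′ on the coding strand, from RefSeq promoters on GRCm38.p6, with capitals on each GC box (GGGCGG on either strand). They are Slc25a20 and Crot, carnitine genes of mitochondria and peroxisomes, and Eci2 and Eci3, which follow each other on chromosome 13 and moved in opposite directions.
Slc25a20 (chr9:108661886-108662135, plus strand): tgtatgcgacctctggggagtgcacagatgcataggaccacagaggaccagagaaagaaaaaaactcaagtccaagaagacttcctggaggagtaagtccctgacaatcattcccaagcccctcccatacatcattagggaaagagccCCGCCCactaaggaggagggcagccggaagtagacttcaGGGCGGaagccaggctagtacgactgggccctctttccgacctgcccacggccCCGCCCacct
Crot (chr5:8997147-8997396, minus strand): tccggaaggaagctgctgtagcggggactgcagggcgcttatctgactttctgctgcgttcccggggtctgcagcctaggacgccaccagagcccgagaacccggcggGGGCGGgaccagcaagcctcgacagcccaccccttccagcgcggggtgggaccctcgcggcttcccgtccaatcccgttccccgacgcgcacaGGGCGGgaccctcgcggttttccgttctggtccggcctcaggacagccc
Eci2 (chr13:34994145-34994394, minus strand): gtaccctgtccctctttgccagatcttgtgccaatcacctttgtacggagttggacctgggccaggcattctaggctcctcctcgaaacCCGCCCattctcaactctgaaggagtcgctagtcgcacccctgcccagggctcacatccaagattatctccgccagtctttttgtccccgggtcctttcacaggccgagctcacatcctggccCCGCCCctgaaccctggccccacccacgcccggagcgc
Eci3 (chr13:34963810-34964059, minus strand): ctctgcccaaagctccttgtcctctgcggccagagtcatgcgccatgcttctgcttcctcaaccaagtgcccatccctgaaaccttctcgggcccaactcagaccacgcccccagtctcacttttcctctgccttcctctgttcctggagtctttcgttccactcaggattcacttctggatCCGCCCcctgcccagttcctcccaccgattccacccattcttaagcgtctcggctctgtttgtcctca
The Slc25a20 stretch held 3 GC boxes, those of Crot and Eci2 held 2 each, and that of Eci3 held 1. Over whole RefSeq windows of 300 bases, 26 of 40 promoters of the genes described held a GC box, against 35.7% of all 32851 promoters. The promoters belonged to 37 of the 44 genes. The half-site AGGTCA, which nuclear receptors such as PPARalpha bind in pairs, stood on either strand in 6 of the 40 (15.0%, against 16.3% of all promoters), those of Acadm, Acadvl, Acot12, Acot4, Echs1 and Phyh. None held 2 half-sites in direct repeat spaced by 1 base, a form present in 0.0396% of all promoters. The E-box CACGTG, a sequence bound by clock factors, stood in the Acot4 promoter alone (2.5% of the 40, against 7.15% of all), and the D-boxes TTATGTAA and TTACGTAA in none (0.938% and 0.119% of all). These are matches of letters within a short window, not binding sites.

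The first comparison asked how CR changed the genes. In WTCR livers 7 of the 42 genes were higher than in WTAL and 3 were lower, by the rule of the study's methods, which asks for a change of over 1.3-fold together with a p below 0.05 from limma before adjustment. The higher genes were Slc25a20, Acads, Acad10 and Acot2 in mitochondria, Acox2 in peroxisomes, Eci2 in both and the cytosolic Acot12. The lower genes, Crot, Eci3 and Hacl1, were all peroxisomal. Of the 21 mitochondrial genes 4 rose and 0 fell, with a median log2 difference of 0.22, and of the 14 peroxisomal genes 1 rose and 3 fell, with a median of -0.01.
By the same rule 4.00% of all genes were higher and 4.26% lower, and the median over all genes was 0.0023. The genes described had strong signals, and 35 of the 42 lay above the 90th percentile of mean signal. Among the 1775 genes above it 12.8% were higher and 9.46% lower, with a median of 0.07. After Benjamini-Hochberg adjustment over all probe sets, 2 of the 42 were higher (Slc25a20 and Acox2) and 1 was lower (Crot), against 3.17% of all genes changed either way at an adjusted p under 0.05.

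**Figure D1:**
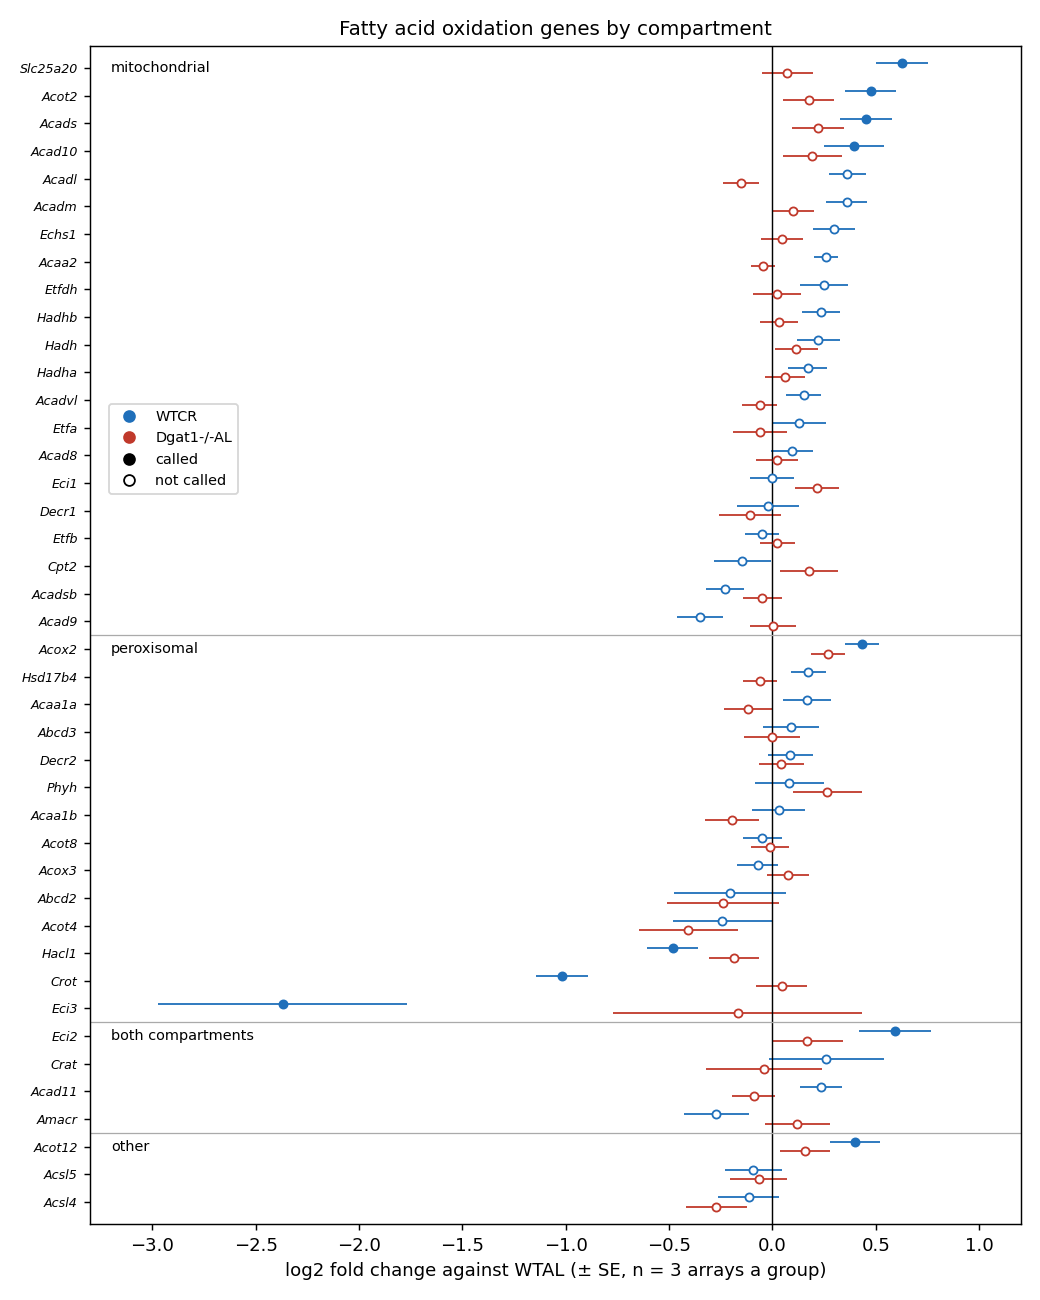
Log2 fold change (x axis) of each of the 42 measured genes (y axis) in WTCR and in Dgat1-/-AL against WTAL livers, with bars for the SE (n = 3 arrays a group), grouped by compartment. Filled points passed the rule for a call, which 10 genes did in WTCR and 0 in Dgat1-/-AL. The longest bars belong to Eci3.

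In the carnitine shuttle, which carries acyl groups across the mitochondrial inner membrane and out of peroxisomes, 1 gene rose and 1 fell. Slc25a20, the carnitine/acylcarnitine translocase of the mitochondrial inner membrane, had signals of 11.20, 11.08 and 11.32 in WTCR arrays, 10.50, 10.59 and 10.85 in Dgat1-/-AL arrays and 10.41, 10.79 and 10.54 in WTAL arrays. Every WTCR array lay above every other array. In WTCR the gene stood 1.54-fold above WTAL (log2 0.63 ± 0.12, SE, adjusted p = 0.0359 from limma) and remained so with each array left out in turn, at 0.54 to 0.73. Crot, which makes carnitine esters of the shortened chains that leave peroxisomes, had signals of 11.62, 11.56 and 11.91 in WTCR arrays, 12.64, 12.87 and 12.77 in Dgat1-/-AL arrays and 12.80, 12.85 and 12.50 in WTAL arrays. All 3 WTCR arrays lay below the other 6. Crot fell 2.02-fold in WTCR relative to WTAL (log2 -1.02 ± 0.12, adjusted p = 0.00935), the lowest adjusted p of the 42 genes. The other shuttle genes among the 42 did not pass the rule. Cpt2, which re-forms acyl-CoA inside mitochondria, differed by -0.15 ± 0.14 and Crat, which exchanges acetyl groups, by 0.26 ± 0.28. Cpt1a, a shuttle gene outside the 42, was not called either (0.35 ± 0.25).

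The 9 acyl-CoA dehydrogenases take the first step of the cycle, and all but Acad11, which lies in both compartments, are mitochondrial. Of these 9 genes 2 rose and 0 fell, with a median difference of 0.23. Acads, which acts on short chains, had signals of 10.32, 10.13 and 10.26 in WTCR arrays, against 9.62, 10.04 and 9.69 in WTAL arrays. The groups did not overlap, and the difference of 0.45 ± 0.13 had an adjusted p of 0.112. Acad10, a family member, had signals of 7.82, 7.50 and 7.28 in WTCR arrays against 6.95, 7.16 and 7.31 in WTAL arrays, which overlapped, with a difference of 0.39 ± 0.14 (adjusted p = 0.226). Its relative Acad11 had signals of 11.48, 11.17 and 11.18 in WTCR arrays and 10.98, 11.12 and 11.03 in WTAL arrays, a difference of 0.23 ± 0.10 that stayed under the fold limit. The medium-chain Acadm and long-chain Acadl also stayed just under it, at 0.36 ± 0.10 (adjusted p = 0.108) and 0.36 ± 0.09 (adjusted p = 0.0723), with all WTCR arrays above all WTAL arrays for both. The limit of 1.3-fold is 0.379 on the log2 scale. The very-long-chain Acadvl differed by 0.15 ± 0.08 and Acad8, of valine breakdown, by 0.09 ± 0.10. The 2 dehydrogenases with negative values were Acad9, which also serves the assembly of complex I (-0.35 ± 0.11, adjusted p = 0.157), and Acadsb, of isoleucine breakdown (-0.23 ± 0.09, adjusted p = 0.290). All WTCR arrays lay below all WTAL arrays for both, and Acad9 too stayed just under the fold limit.

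The later steps of the cycle came next. All 8 hydratase, hydroxyacyl-CoA dehydrogenase and thiolase genes had positive values in WTCR against WTAL, from 0.03 to 0.30 with a median of 0.20, and none passed the rule. When the arrays were quantile-normalized again, 7 of the 8 were positive but their median was 0.08. Of all 19935 genes 10466 were then positive. In mitochondria these were Echs1 (0.30 ± 0.10), Acaa2 (0.26 ± 0.06, adjusted p = 0.0547), Hadhb (0.24 ± 0.09), Hadh (0.22 ± 0.11) and Hadha (0.17 ± 0.10), the last with Hadhb encoding the trifunctional protein of the inner membrane from neighbouring genes on chromosome 5. In peroxisomes they were Hsd17b4, the D-bifunctional protein (0.17 ± 0.08), and 2 thiolase genes. Acaa1a, thiolase A, had signals of 9.36, 9.31 and 9.24 in WTCR arrays against 9.07, 9.18 and 9.16 in WTAL arrays, groups that did not overlap and differed by 0.17 ± 0.12. Acaa1b, thiolase B, had 10.75, 10.39 and 10.51 in WTCR arrays against 10.46, 10.57 and 10.54 in WTAL arrays, which overlapped (0.03 ± 0.13). Of the electron transfer genes, Etfdh differed by 0.25 ± 0.11, Etfa by 0.13 ± 0.13 and Etfb by -0.05 ± 0.08, and none passed.

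The peroxisomal first step and the entry of substrates were less uniform. Acox2, the oxidase that acts on branched chains and bile acid precursors, had signals of 10.53, 10.46 and 10.24 in WTCR arrays, 10.24, 10.25 and 10.26 in Dgat1-/-AL arrays and 10.04, 9.97 and 9.93 in WTAL arrays. WTCR and Dgat1-/-AL arrays overlapped, and both groups lay above all WTAL arrays. In WTCR the gene stood 1.35-fold above WTAL (0.43 ± 0.08, adjusted p = 0.0306). Acox3 differed by -0.07 ± 0.10, and the half-transporters Abcd3 and Abcd2, which import fatty acyl-CoA, by 0.09 ± 0.14 and -0.21 ± 0.27. The acyl-CoA synthetases Acsl4 and Acsl5 differed by -0.12 ± 0.15 and -0.09 ± 0.14.

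Alpha-oxidation removes 1 carbon from branched chains such as phytanic acid before beta-oxidation can begin. Hacl1, the lyase of this route, had signals of 12.35, 12.43 and 12.66 in WTCR arrays, 12.56, 12.90 and 12.87 in Dgat1-/-AL arrays and 12.86, 12.90 and 13.12 in WTAL arrays. WTCR lay below WTAL without overlap (-0.48 ± 0.12, adjusted p = 0.0825), and Dgat1-/-AL replicate 1 lay within the WTCR range. Phyh, the hydroxylase before it, differed by 0.08 ± 0.17 and Amacr, the racemase of methyl-branched chains, by -0.27 ± 0.16, and neither passed.

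The enoyl-CoA isomerases, which shift double bonds of unsaturated chains so that oxidation can proceed, were called in both directions. Eci2 had signals of 10.30, 9.93 and 9.95 in WTCR arrays, 9.87, 9.53 and 9.50 in Dgat1-/-AL arrays and 9.16, 9.47 and 9.76 in WTAL arrays, and stood 1.51-fold above WTAL in WTCR (0.59 ± 0.17, adjusted p = 0.125), without overlap. Its neighbour and relative Eci3 had signals of 5.79, 5.63 and 5.64 in WTCR arrays, 7.56, 8.44 and 7.66 in Dgat1-/-AL arrays and 6.42, 8.60 and 9.15 in WTAL arrays. All 3 WTCR arrays lay close together and below all others, and at the 45.9th to 49.7th percentile of all probe sets on their array, the only signals of the 42 genes under an array's median. No detection call was used here, so it is not known whether these signals stood above background. On the signals as given Eci3 fell in WTCR relative to WTAL (-2.37 ± 0.60, adjusted p = 0.0819), a difference of signals that sets no exact fold for the mRNA. The SD of Eci3 within WTAL was 1.44, with replicate 1 far below the other two, and the difference was -3.19 without that array, -2.10 without the array labelled WTAL replicate 2 and -1.82 without WTAL replicate 3. The mitochondrial isomerase Eci1 (-0.0007 ± 0.11) and the reductases Decr1 (-0.02 ± 0.15) and Decr2 (0.09 ± 0.11) did not pass.

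Thioesterases, which release free fatty acids from acyl-CoA, also split. Mitochondrial Acot2 had signals of 7.98, 7.71 and 7.67 in WTCR arrays against 7.13, 7.26 and 7.55 in WTAL arrays, and rose by 0.48 ± 0.12 (adjusted p = 0.0881) without overlap. Peroxisomal Acot4, 2 genes further along chromosome 12, had 9.53, 8.93 and 9.31 in WTCR arrays against 9.04, 9.62 and 9.84 in WTAL arrays, which overlapped (-0.24 ± 0.24). The cytosolic acetyl-CoA hydrolase Acot12 had 10.85, 10.42 and 10.60 in WTCR arrays against 10.17, 10.39 and 10.11 in WTAL arrays, and rose by 0.40 ± 0.12 (adjusted p = 0.141). Peroxisomal Acot8 differed by -0.05 ± 0.09. Whether the probes tell these paralogs apart was not tested.

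**Figure D2:**
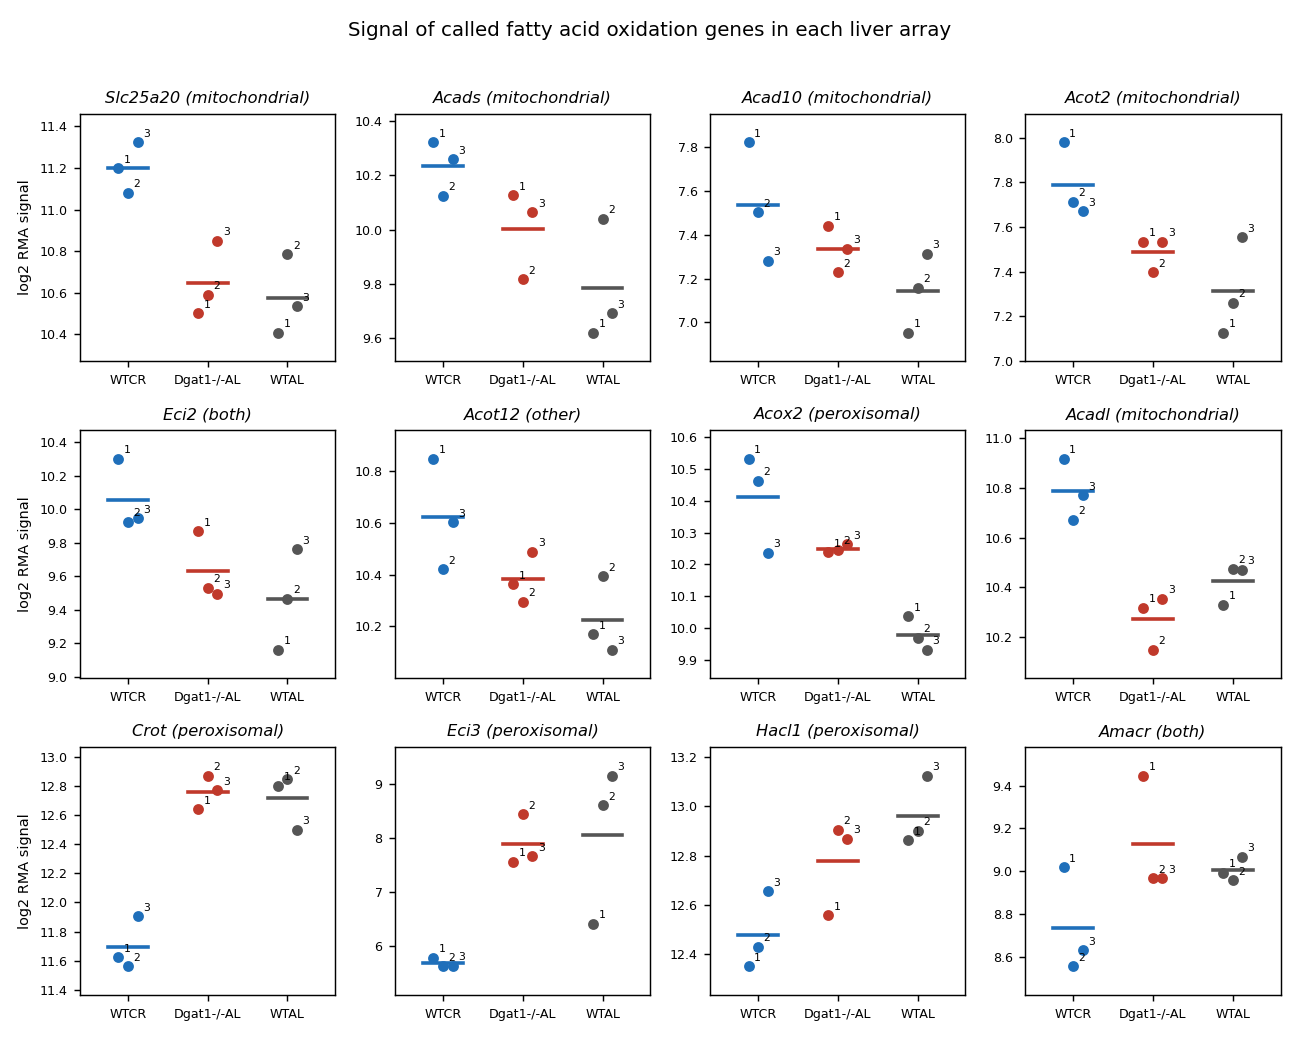
Log2 RMA signal (y axis, a separate range for each panel) of the 12 genes called in any comparison, in each WTCR, Dgat1-/-AL and WTAL array (x axis). Digits give the replicate and lines the group means. The WTCR arrays of Slc25a20 lie above and those of Crot and Eci3 below all other arrays, and WTAL replicate 1 of Eci3 lies at 6.42.

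Which calls depended on 1 array differed between genes. The differences of Slc25a20, Acot2, Eci2, Crot, Eci3 and Hacl1 from WTAL stayed past the rule with each of the 9 arrays left out. Acads lost its call without WTAL replicate 1 (0.37), Acox2 without WTCR replicate 1 (0.37), Acad10 without WTAL replicate 1 (0.30), WTAL replicate 2 (0.40) or WTCR replicate 1 (0.25), and Acot12 without WTAL replicate 1 (0.37), WTAL replicate 3 (0.34) or WTCR replicate 1 (0.29). Without the array labelled WTAL replicate 2, 8 genes were higher, Acadm (0.40) and Acadl (0.39) now among them, and 4 lower, Acad9 (-0.40) now among them. Slc25a20 (0.73, adjusted p = 0.0394) and Crot (-0.95, adjusted p = 0.0308) kept an adjusted p under 0.05, and that of Acox2 was 0.0858.

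The size of the mitochondrial shift depended on scaling. The 97th percentile of signal was 11.15 to 11.21 in WTCR arrays, 10.96 to 11.04 in Dgat1-/-AL arrays and 11.02 to 11.07 in WTAL arrays, so that strong signals were higher in WTCR arrays as deposited. With the deposited signals quantile-normalized again, the mitochondrial median in WTCR against WTAL was 0.07 and the peroxisomal median -0.07. Of the 42 genes 3 were then higher (Slc25a20, Eci2 and Acot2) and 4 lower (Crot, Eci3, Hacl1 and Acad9), while 645 of all genes were higher and 940 lower, against 797 higher and 849 lower as deposited.

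Set against each other in each array, the compartments separated in WTCR livers. The mean over the mitochondrial genes of the difference from the WTAL mean was 0.25, 0.09 and 0.19 in WTCR arrays, between -0.0005 and 0.12 in Dgat1-/-AL arrays, and -0.07, 0.04 and 0.03 in WTAL arrays. The mean over the peroxisomal genes was -0.13, -0.36 and -0.23 in WTCR arrays, -0.19, -0.0023 and 0.05 in Dgat1-/-AL arrays and -0.17, 0.09 and 0.08 in WTAL arrays. The gap between the compartments was therefore 0.38 to 0.45 in WTCR arrays, 0.03 to 0.19 in Dgat1-/-AL arrays and -0.05 to 0.10 in WTAL arrays, and the WTCR range overlapped neither of the others. No test was run on these means, which were set by few genes. Without Crot and Eci3, a choice made after their values were seen, the mean of the other 12 peroxisomal genes in WTCR was 0.0006 ± 0.12 (SD, n = 3) and the gap was 0.12 to 0.22, against 0.03 to 0.18 in Dgat1-/-AL and -0.0087 to 0.01 in WTAL arrays.

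**Figure D3:**
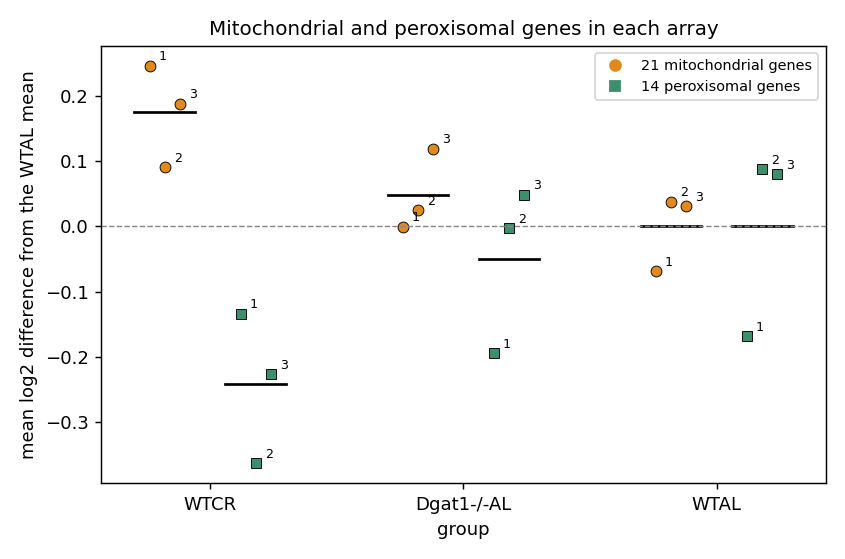
Mean difference from WTAL (y axis, log2) over the 21 mitochondrial and the 14 peroxisomal genes in each array of WTCR, Dgat1-/-AL and WTAL (x axis). Digits give the replicate and lines the group means. The WTCR arrays lie between 0.09 and 0.25 for mitochondrial genes and between -0.36 and -0.13 for peroxisomal genes.

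Clock genes and markers of other liver cells moved with CR too. Among 13 measured genes of the clock, 9 rose and 1 fell in WTCR livers relative to WTAL, and their mean log2 signal was 7.65 to 7.88 in WTCR, 7.16 to 7.52 in Dgat1-/-AL and 7.23 to 7.28 in WTAL arrays. The effects of CR and of a shifted feeding or sampling hour cannot be told apart here. Among other cell types, 2 of 8 Kupffer cell and macrophage markers (Clec4f and Adgre1) and 3 of 5 lymphocyte markers were lower in WTCR than in WTAL. So were 2 of 6 stellate cell markers and 1 of 7 endothelial markers, and none was higher. The lymphocyte markers called were Cd79a, Cd79b and Ms4a1, while Cd3e (-0.08) and Cd3d (-0.07) were not. Cd79a and Ms4a1 lay at percentiles 15.1 and 17.5 of mean signal and were not shown to stand above background. The mean signal of the lymphocyte list was 4.52 to 4.63 in WTCR, 4.67 to 4.83 in Dgat1-/-AL and 4.93 to 5.12 in WTAL arrays, and that of the macrophage list was 7.71 to 8.42 in WTCR, 7.87 to 8.33 in Dgat1-/-AL and 8.04 to 8.73 in WTAL arrays. In Dgat1-/-AL livers relative to WTAL 0 clock genes were called, Clec4f and Adgre1 were lower, and of the endothelial markers 2 were higher and 2 lower. In WTCR relative to Dgat1-/-AL, 8 clock genes were higher and 3 lower, 1 endothelial marker (Lyve1) was higher and 4 lower, 1 stellate marker (Dcn) was higher and 2 lower (Lrat and Reln), and the macrophage marker Csf1r was lower. The mean signal of the endothelial list was 7.58 to 8.05 in WTCR, 7.96 to 8.29 in Dgat1-/-AL and 7.95 to 8.20 in WTAL arrays, and that of the stellate list was 7.60 to 7.68 in WTCR, 7.86 to 7.96 in Dgat1-/-AL and 7.82 to 7.90 in WTAL arrays. By the same rule 4.00% of all genes were higher and 4.26% lower in WTCR than in WTAL. The shares were 0.502% and 0.617% in Dgat1-/-AL against WTAL, and 4.04% and 4.57% in WTCR against Dgat1-/-AL. The part of the clock genes and cell markers in the differences of the oxidation genes, in any of the 3 comparisons, was not tested.

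The second comparison asked whether loss of DGAT1 changed the same genes with free access to food. Between Dgat1-/-AL and WTAL livers, 0 of the 42 genes were called in either direction, against 0.502% of all genes higher and 0.617% lower, and 0% of all genes passed an adjusted p under 0.05. At an unadjusted p under 0.05 from limma there were 895 genes in all and 1 among the 42. That gene was Acox2, whose 3 Dgat1-/-AL arrays lay above all WTAL arrays, at a difference of 0.27 ± 0.08 (adjusted p = 0.972) that stayed under the fold limit. The median difference was 0.03 for the mitochondrial and -0.04 for the peroxisomal genes, beside 0.0013 for all genes. With 1 array left out at a time they ran from 0.0017 to 0.09 and from -0.10 to 0.0095, the lowest of both without Dgat1-/-AL replicate 3, the highest mitochondrial value without Dgat1-/-AL replicate 1 and the highest peroxisomal value without the array labelled WTAL replicate 2.

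The values ranged from -0.41 ± 0.24 for Acot4, whose Dgat1-/-AL signals of 8.76, 9.18 and 9.33 overlapped the WTAL signals of 9.04, 9.62 and 9.84, to that of Acox2. Acads differed by 0.22 ± 0.13, Eci1 by 0.22 ± 0.11 and Phyh by 0.27 ± 0.17, while Slc25a20 differed by 0.07 ± 0.12, Crot by 0.05 ± 0.12 and Eci2 by 0.17 ± 0.17. Acad10, with Dgat1-/-AL signals of 7.44, 7.23 and 7.34, differed by 0.19 ± 0.14, Acad11, with 10.81, 10.99 and 11.06, by -0.09 ± 0.10, and Acot2, with 7.53, 7.40 and 7.53, by 0.18 ± 0.12. Acaa1a (8.82, 8.94 and 9.30) and Acaa1b (10.08, 10.35 and 10.55) differed by -0.12 ± 0.12 and -0.20 ± 0.13. The SE was under 0.2 for 38 of the 42 genes, with a median of 0.12, and small differences were thus not detectable with 3 arrays. Eci3 had the largest SE (-0.17 ± 0.60). Without WTAL replicate 1, its outlying array, 2 genes were called lower, Eci3 among them (-0.99). Without WTAL replicate 3 the Eci3 value was 0.38 and without the array labelled WTAL replicate 2 it was 0.10, neither a call. Without that array 0 of the 42 genes were called, and 3 had an unadjusted p under 0.05 from limma, namely Acads (0.35, adjusted p = 0.86), Eci1 (0.29, adjusted p = 0.982) and Acox2 (0.27, adjusted p = 0.958).

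The third comparison set the WTCR and Dgat1-/-AL livers against each other and so tested where CR and DGAT1 loss differed. Of the 42 genes 3 were higher in WTCR (Slc25a20, Acadl and Eci2) and 3 lower (Crot, Eci3 and Amacr), against 4.04% of all genes higher and 4.57% lower. Among the 1775 genes above the 90th percentile of signal 10.7% were higher and 11.4% lower. The median difference was 0.20 for mitochondrial and 0.04 for peroxisomal genes.
Acadl, the long-chain dehydrogenase, had signals of 10.92, 10.67 and 10.77 in WTCR arrays, 10.32, 10.15 and 10.35 in Dgat1-/-AL arrays and 10.33, 10.47 and 10.47 in WTAL arrays. In WTCR it exceeded Dgat1-/-AL 1.43-fold (0.51 ± 0.09, adjusted p = 0.0223), without overlap and with each array left out (0.45 to 0.57). Crot differed by -1.06 ± 0.12 (adjusted p = 0.00787), Slc25a20 by 0.55 ± 0.12 (adjusted p = 0.0543) and Eci3, with WTCR signals not shown to stand above background, by -2.20 ± 0.60 (adjusted p = 0.0983). At an adjusted p under 0.05, which 3.01% of all genes passed either way, 3 of the 42 differed. They were Acadl, Crot and the mitochondrial thiolase Acaa2, which was below the fold limit (0.31 ± 0.06, adjusted p = 0.0322). With the replicate number as a block the adjusted p was 0.0288 for Crot, 0.0524 for Acadl and 0.0761 for Acaa2, and without the array labelled WTAL replicate 2 it was 0.0537 for Acaa2. Without that array 2 genes were higher and 3 lower, and Acadl and Crot alone had an adjusted p under 0.05.

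Calls of Eci2 and Amacr were lost under some choices. Eci2 differed by 0.42 ± 0.17 (adjusted p = 0.273) and lost its call with the replicate number as a block (unadjusted p = 0.0603), though not in a fit of WTCR and Dgat1-/-AL alone with that block (unadjusted p = 0.00158). Its call was also lost when any of 4 arrays was left out, namely Dgat1-/-AL replicates 2 (0.37) and 3 (0.36), WTAL replicate 2 (0.42) and WTCR replicate 1 (0.30). Amacr had signals of 9.02, 8.56 and 8.63 in WTCR arrays, 9.45, 8.97 and 8.97 in Dgat1-/-AL arrays and 8.99, 8.96 and 9.07 in WTAL arrays, so that WTCR and Dgat1-/-AL overlapped (-0.39 ± 0.16, adjusted p = 0.264). Within each replicate number the WTCR array lay below the Dgat1-/-AL array. With that number as a block, a pairing that the labels do not give, the unadjusted p of Amacr was 0.0131 (adjusted p = 0.168 from limma). Without the block its call was lost when Dgat1-/-AL replicate 1 (-0.23) or WTCR replicate 2 (-0.30) or 3 (-0.34) was left out. Acox2, which lay above WTAL in both groups, differed by 0.16 ± 0.08 between them (adjusted p = 0.402) and Hacl1 by -0.30 ± 0.12 (adjusted p = 0.283). The comparisons of WTCR and of Dgat1-/-AL with WTAL share the 3 WTAL arrays, so their values are not independent.

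Other genes of the pathway, taken from fixed lists, were called in both directions. Of 17 further beta-oxidation genes 4 were higher and 1 lower in WTCR than in WTAL, against 4.00% and 4.26% of all genes. Nudt19, a peroxisomal hydrolase of CoA esters, had signals of 9.10, 9.12 and 9.01 in WTCR arrays, 8.43, 8.42 and 8.65 in Dgat1-/-AL arrays and 7.96, 8.45 and 8.29 in WTAL arrays. WTCR lay above the other groups without overlap, and the difference from WTAL was 0.84 ± 0.12 (adjusted p = 0.0146). Nudt7, another peroxisomal CoA hydrolase, went the other way, with 9.69, 8.95 and 9.45 in WTCR arrays, 10.70, 10.51 and 10.49 in Dgat1-/-AL arrays and 10.58, 10.20 and 9.93 in WTAL arrays. It was lower by -0.87 ± 0.21 against WTAL (adjusted p = 0.0658) and by -1.20 ± 0.21 against Dgat1-/-AL (adjusted p = 0.0225). The peroxisomal bifunctional enzyme gene Ehhadh (0.60 ± 0.24, adjusted p = 0.27), the mitochondrial dehydrogenase gene Hsd17b10 (0.40 ± 0.15, adjusted p = 0.242) and the cytosolic thioesterase gene Acot1 (0.84 ± 0.30, adjusted p = 0.218), which lies beside Acot2, were also called higher. With the arrays quantile-normalized again the calls of Ehhadh and Hsd17b10 against WTAL were lost. In WTCR against Dgat1-/-AL 3 of the 17 genes were higher and Nudt7 alone was lower. The 3 were Nudt19 (0.57 ± 0.12, adjusted p = 0.0462), Acot1 (1.25 ± 0.30, adjusted p = 0.0681) and Ehhadh (0.63 ± 0.24, adjusted p = 0.233). Ehhadh lost this call too with the arrays quantile-normalized again.
Of 13 peroxisome assembly genes 2 were higher in WTCR than in WTAL, the import receptor Pex5 (0.43 ± 0.16) and Pex11a (0.43 ± 0.14), which acts in peroxisome division, and 0 were lower. Neither of 2 measured ketogenesis genes and none of 8 genes of propionate and branched-chain breakdown was called. In Dgat1-/-AL livers none of the genes in these 4 lists was called against WTAL.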

How the data were processed

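Liver RNA of 9 mice was hybridized to 1 array each. Per the labels and methods, the authors deposited log2 values from RMA (version not given), a method of background correction, quantile normalization and summary over probes. Of 28815 probe sets, 21780 had 1 gene symbol, 1605 several and 5430 none in the platform annotation. limma 3.58.1 (R 4.3.3) fitted 1 mean per group and 1 spread over all 9 arrays, with eBayes and no filter, and p was adjusted over all probe sets. Calls follow the methods' rule, over 1.3-fold with an unadjusted p below 0.05. Shares of all genes used 1 probe set per gene. The script was tested on simulated data. The number of arrays limits the precision.

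The genes and lists were chosen with earlier results of these data known. Values in every array were given for genes called in any comparison and for 4 pairs of related genes, and all others by their fold change. Deviations of same-numbered WTCR and Dgat1-/-AL arrays from their group means correlated at 0.211 to 0.477. Differently numbered arrays of these groups correlated at -0.371 to 0.184. A pairing of WTCR and Dgat1-/-AL arrays by number was allowed for only in alternative fits with a block, and the main fit had none. Its basis lay in the data and not in the labels. Deviations from a group mean cancel out within the group, so same-numbered and differently numbered correlations are not independent. This basis was weak, since differently numbered pairs with WTAL arrays reached 0.313 for Dgat1-/-AL and 0.234 for WTCR. Same-numbered pairs with WTAL arrays correlated at -0.325 to 0.045 and were not taken as paired. The replicate block still covered the WTAL arrays, except in the fit of WTCR and Dgat1-/-AL alone. Alternatives were each array left out, the replicate block, only the groups compared, other scalings, thresholds, filters and variance models, and other compartments for the 4 shared genes.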

Additional observations from a re-analysis of the deposited data

How the results depend on the processing

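With the replicate number as a block the counts called were 7 higher and 3 lower in WTCR against WTAL, 0 and 0 in Dgat1-/-AL against WTAL and 2 higher and 3 lower in WTCR against Dgat1-/-AL, and Eci2 in the last was the only call by fold and unadjusted p that the block ended. This block also covered the WTAL arrays, which were not taken as paired with the others. At an adjusted p under 0.05 the block left Crot alone, in WTCR against WTAL (0.0357) and against Dgat1-/-AL (0.0288), with Slc25a20 at 0.0655 and Acox2 at 0.0631 against WTAL and Acadl at 0.0524 and Acaa2 at 0.0761 against Dgat1-/-AL. With the block in a fit of WTCR and Dgat1-/-AL alone, chosen after seeing the data, 3 were higher and 3 lower. Without the block, at an adjusted p under 0.05, 2 genes were higher and 1 lower in WTCR against WTAL, and likewise 2 higher and 1 lower in WTCR against Dgat1-/-AL. With no fold limit the counts were 13 higher and 5 lower in WTCR against WTAL, 11 and 6 in WTCR against Dgat1-/-AL, and 1 higher in Dgat1-/-AL against WTAL. With the arrays quantile-normalized again, 3 genes were higher in WTCR against WTAL. The mitochondrial median in WTCR was then 0.0658 against WTAL and 0.0523 against Dgat1-/-AL. The mitochondrial means of the 3 WTCR arrays were 0.1446, 0.0055 and 0.072. Strong signals were higher in WTCR arrays as deposited, and their part in these lower values was not tested. Leaving out 1 array at a time gave 4 to 9 higher and 3 to 5 lower genes in WTCR against WTAL and 0 to 2 lower in Dgat1-/-AL against WTAL. The peroxisomal median ranged from -0.0903 to 0.0927 in WTCR against WTAL and from -0.0432 to 0.1517 in WTCR against Dgat1-/-AL, so its sign was not settled. Without moderation of the spread Acad10 lost its call against WTAL, and Amacr and Eci2 lost theirs against Dgat1-/-AL. With only the groups compared, Amacr lost its call too. The causes of these changes were not tested. With 3 arrays a group, differences near the fold limit fall on either side of it.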
